A study of Mus musculus with 577 samples.

Results

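Long noncoding RNAs that stay in the nucleus or come from imprinted loci were followed in cells cut from sections of the mouse ovary by laser capture microdissection. The members were the 10 symbols Malat1, Neat1, Meg3, Rian, Mirg, H19, Kcnq1ot1, Airn, Gas5 and Snhg1, found by their symbol in the 4 read count tables that list noncoding genes. Of these, 9 had a row, among 45905 rows of which 23845 were not protein-coding, and Snhg1 was not analysed here. Meg3 and Rian each had a second row with the same symbol, and both of those rows held 0 reads in every library, so 11 rows carried a member symbol.

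The tables held 250 libraries in 20 groups, out of 577 samples in the series. All came from ovaries of 8-week-old female mice, frozen and cut at 15 µm, and the labels give neither strain nor the mouse of origin. Granulosa cells, the somatic cells that surround the oocyte, were taken next to the oocyte (neighboring) or away from it (non-neighboring), and oocytes came from primary follicles or from secondary to antral follicles. Single cells fixed in alcohol were amplified with SMART-Seq v4 (34 granulosa cells, 18 oocytes), DRaqL-SMART-Seq v4 (39 granulosa cells, 15 oocytes), LCM-seq (37 granulosa cells) or DRaqL-Smart-seq2 (34 granulosa cells). DRaqL is a lysis with a denaturing detergent that is quenched before reverse transcription, and LCM-seq is Smart-seq2 on captured cells without that lysis. The DRaqL protocols also used other enzymes: SuperScript II and III were added to the reverse transcriptase of the SMART-Seq v4 kit, and DRaqL-Smart-seq2 used SuperScript II and III with SeqAmp polymerase where LCM-seq used SuperScript II and KAPA HiFi. Sections fixed for 24 h in formalin, called formalin tissue below, were processed with DRaqL-Protease-Smart-seq2 (24 granulosa cells, 12 oocytes). DRaqL-SC3-seq, which reads the 3′ ends of cDNA, was applied to 16 sections of 8 oocytes, 14 pools of 10 granulosa cells, 7 in each position, and 7 bulk libraries of whole granulosa layers.

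Malat1 is an abundant RNA of nuclear speckles, and Neat1 is the scaffold of paraspeckles, nuclear bodies that hold RNA-binding proteins. Imprinted genes are expressed from the copy of 1 parent. Meg3, Rian and Mirg lie in 1 imprinted cluster and are expressed from the maternal copy, as is H19. Kcnq1ot1 and Airn are expressed from the paternal copy and silence neighboring genes in their clusters. Gas5 and Snhg1 host small nucleolar RNAs in their introns. Oocytes of growing follicles accumulate RNA for use after meiosis, and their imprints are set during growth.

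All these libraries were primed on poly(A), so the annotated ends of the members and their runs of A are shown first. Malat1 and the long form of Neat1 are known to be cut at the 3′ end by RNase P rather than cleaved and polyadenylated. The windows below are 30 bases in the sense of the RNA, from GENCODE vM21 transcripts on GRCm38. The ends are those of the annotated transcripts, so a window need not be the mature end of an RNA cut by RNase P. In the 3′ ends, capitals mark AATAAA or ATTAAA, the usual polyadenylation signals.
Malat1 3′ end, chr19:5795690-5795719, minus strand: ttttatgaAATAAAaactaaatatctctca
Neat1 long form 3′ end, chr19:5824708-5824737, minus strand: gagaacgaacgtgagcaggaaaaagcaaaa
Neat1 short form 3′ end, chr19:5842307-5842336, minus strand: tttacagcaaAATAAAggtttgagattgaa
Meg3 3′ end, chr12:109571697-109571726, plus strand: gctttcAATAAAtttcttgttttaactaaa
Kcnq1ot1 3′ end, chr7:143203458-143203487, minus strand: taatAATAAAgacATTAAAatccacaaaac
Airn 3′ end, chr17:12830306-12830335, plus strand: cattATTAAAatatttttttcatgcccatt
Gas5 3′ end, chr1:161038506-161038535, plus strand: aaaattttaccATTAAAgtgtattataaca
Such a signal stood in the last 30 bases of 29.6% of 141722 annotated transcripts. The long form of Neat1 held none in these letters, whereas its short form did.

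The annotated transcripts also differed in runs of A, at which a poly(dT) primer can anneal. The longest run of at least 8 A in each of 3 members is shown in capitals.
Malat1, chr19:5795979-5796008, minus strand: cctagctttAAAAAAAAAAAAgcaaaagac
Meg3, chr12:109545810-109545839, plus strand: caagaccAAAAAAAAAAAAAAAAcaaaaac
Kcnq1ot1, chr7:143226961-143226990, minus strand: caaccAAAAAAAAAAAAAAAAAAAAAAAAA
Kcnq1ot1, a single exon of 93092 bases, held 30 such runs, and the window shows the start of its longest run of 41. Meg3 (14548 bases) held 7, Rian (8089 bases) held 2, and Malat1 (6983 bases) held 1. The Malat1 run began at base 6674, near the annotated end, and whether the mature RNA ends there was not analysed here. The long and short forms of Neat1 and the transcripts taken for Mirg, H19, Airn and Gas5 held none. The Airn transcript taken has 1375 bases in 2 exons, in a gene annotated over chr17:12741311-12860136. Its end at 12830335 lies inside that gene, and the rest of the gene was not searched for runs of A. At least 1 run was present in 24.4% of 68537 transcripts of 1000 bases or more. These are descriptions of the annotation, and the place where each read began was not analysed here.

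Values below are reads per 1000000 reads of all rows (RPM), and differences are between group means of log2 (RPM+1), the scale used by the study. Reads per library ranged from 79010 to 21201241, and the share of reads on rows that are not protein-coding from 16.4% to 44.7%. The members together took 0.00204% to 2.68% of reads. Granulosa cell markers (10 genes) summed to a median of 3488 RPM in single granulosa cells and 239.6 RPM in oocyte libraries, and oocyte markers (14 genes) to 92.7 and 21402 RPM. The labels name no mouse, and the study describes the methods it compared as run on sections of a shared ovary, so the cells of a group are 1 sample: single-cell results are values with their spread over cells, without a test.

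**Figure D1:**
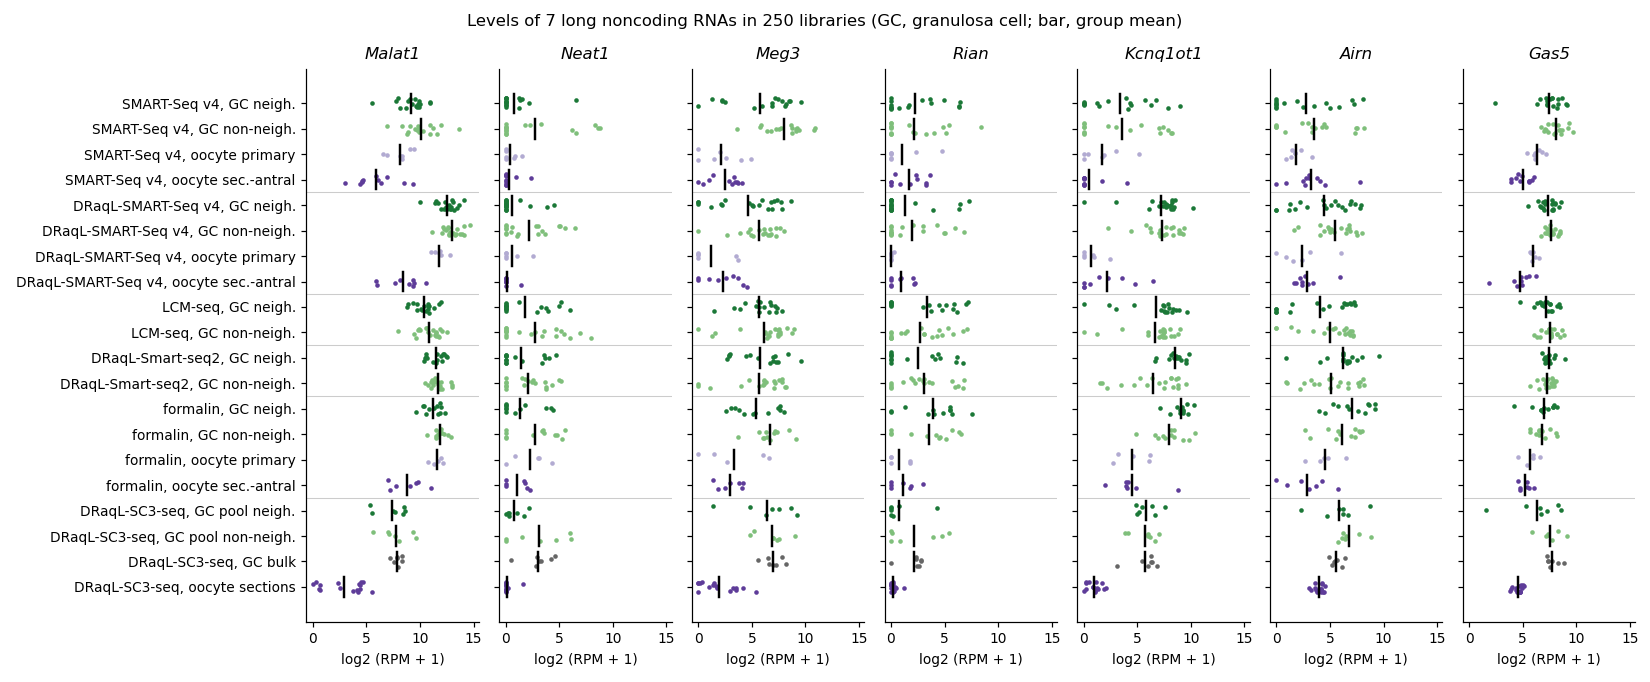
Levels of 7 members, as log2 (RPM+1), in every library of the 20 groups; each point is 1 library and each bar the group mean. Malat1 and Gas5 were detected in nearly every library, Neat1 and Rian at 0 in many, and Kcnq1ot1 means were lower in oocyte groups than in granulosa groups of the same protocol.

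Of the 250 libraries, Gas5 was detected in 250, Malat1 in 249, Meg3 in 229, Airn in 228, Kcnq1ot1 in 217, Rian in 146, Neat1 in 121, Mirg in 45 and H19 in 13. H19, a fetal growth-restraining RNA, was found in 4 of 168 single granulosa cells (2.38%, exact 95% interval 0.652 to 5.98%) and in 5 of 53 oocytes (9.43%, 3.13 to 20.7%), with the sections of a serially cut oocyte counted as 1. Those intervals overlapped, and the highest H19 level was 64.9 RPM, in a non-neighboring cell of LCM-seq. All intervals here cover counting error only.

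The first question was how the members differ between the germ cell and the somatic cells around it. Every member that could be compared was lower on the RPM scale in oocytes than in granulosa cells of the same protocol. A member was compared where its mean log2 (RPM+1) was at least 1 in either group. It was lower by at least 1 for 5 of 7 members with SMART-Seq v4, 7 of 7 with DRaqL-SMART-Seq v4, 6 of 7 in formalin tissue and 8 of 8 with DRaqL-SC3-seq, and none was higher by that much. Of all compared genes, 4.59%, 11.8%, 8.15% and 21.8% were lower by at least 1 in these comparisons, and 68.0%, 47.6%, 49.4% and 44.4% were higher. The median member difference was -2.25, -2.30, -2.79 and -2.33, against +1.63, +0.92, +0.98 and +0.73 over all compared genes. The 10-cell pools served as granulosa cells for DRaqL-SC3-seq. In the 3 single-cell protocols, oocytes and granulosa cells were amplified in different library pools, so cell type and pool cannot be told apart. Against all granulosa cells, primary oocytes alone gave 7, 5 and 5 of 7 members lower by at least 1 with SMART-Seq v4, DRaqL-SMART-Seq v4 and formalin, and later oocytes alone 5, 6 and 6, a split made after seeing the data. The share of all compared genes was not computed for that split, and the shares above are for both stages together. The members not below 0 in that split were Malat1 (+0.05) and Neat1 (+0.19) in formalin primary oocytes and Airn (+0.05) in later SMART-Seq v4 oocytes.

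**Figure D2:**
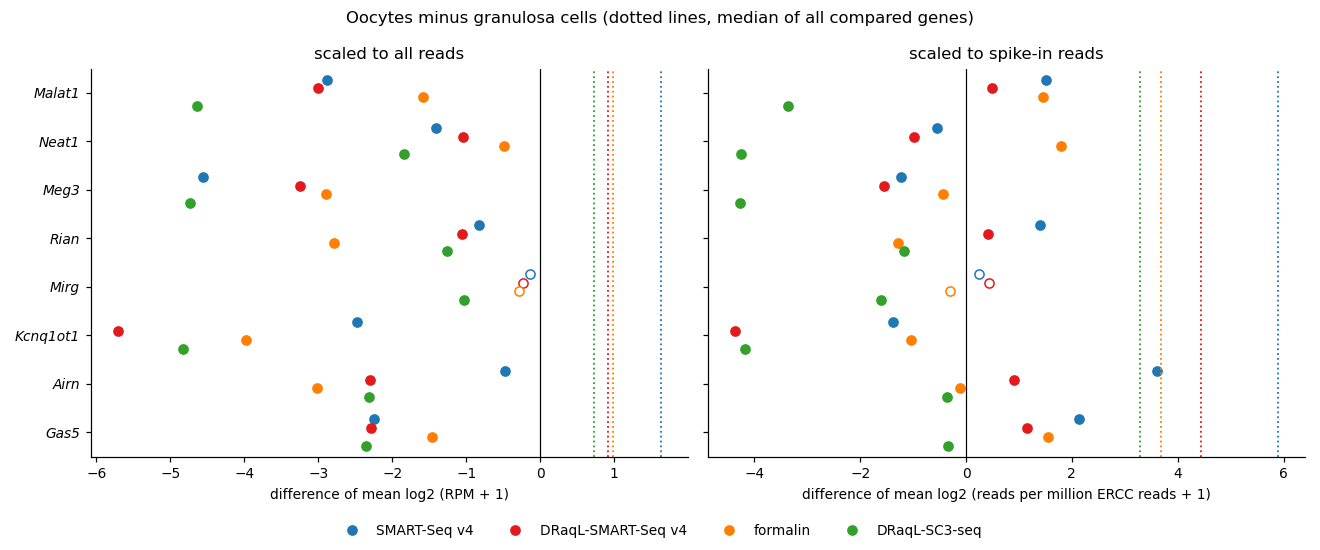
Oocytes minus granulosa cells for each member in 4 protocols, as the difference in mean log2 (RPM+1) on the left and scaled to ERCC spike-in reads on the right, with medians of all compared genes as dotted lines; open circles are members under a mean of 1 in both groups, which were not compared. All filled points lie below 0 on the left, and on the right Malat1 lies at +1.52, +0.49, +1.46 and -3.36. The last of these compares oocyte sections with pools of granulosa cells, so cell number and level per cell cannot be told apart there. In all 4 protocols cells were cut from sections. The part of a cell captured and its level per cell therefore cannot be told apart on the right.

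Among the nuclear-body RNAs, Malat1 had an RPM range of 7.23 to 701 with a median of 104 in SMART-Seq v4 oocytes, against 45.5 to 12885 with a median of 824 in granulosa cells. With DRaqL-SMART-Seq v4 its RPM was 56.8 to 7316 (median 702) in oocytes and 1016 to 25467 (median 6837) in granulosa cells. These ranges overlapped, and the mean differences in log2 (RPM+1) were -2.88 and -3.00. In formalin tissue the Malat1 level was 127 to 4655 RPM (median 1278) in oocytes and 785 to 7759 (median 3346) in granulosa cells, a difference of -1.58. By stage it was -2.74 for the 7 oocytes of secondary to antral follicles and +0.05 for the 5 primary ones. The stage values were -3.76 and -1.50 with SMART-Seq v4, and -4.38 and -0.93 with DRaqL-SMART-Seq v4, for later and primary oocytes. With DRaqL-SC3-seq no oocyte reached the lowest pool: the oocytes, as means of their sections, ran from 0.399 to 30.6 RPM and the pools from 40.3 to 786, a difference of -4.64. The share of all compared genes without overlap was not computed. Neat1, the paraspeckle scaffold, differed by -1.41, -1.04, -0.48 and -1.84 in the order SMART-Seq v4, DRaqL-SMART-Seq v4, formalin and DRaqL-SC3-seq. Both groups held many libraries without a Neat1 read, so those ranges overlapped.

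Among the paternally expressed antisense RNAs, Kcnq1ot1 had the widest gap of any member in all protocols but SMART-Seq v4, where Meg3 had. Its RPM in DRaqL-SMART-Seq v4 was 0 to 89.1 (median 0.788) in oocytes and 0 to 1149 (median 209) in granulosa cells, a difference of -5.71 in log2 (RPM+1). With DRaqL-SC3-seq it was 0.177 to 2.14 RPM (median 0.954) in oocytes and 13.7 to 191 (median 63.8) in pools, a difference of -4.83. These DRaqL-SC3-seq ranges did not overlap, and the share of all compared genes without overlap was not computed. The differences were -2.47 with SMART-Seq v4 and -3.98 in formalin tissue. Airn, which silences Igf2r, differed by -0.48, -2.30, -3.02 and -2.32 in the same order of protocols. In formalin tissue Airn ranged over 0 to 90.3 RPM (median 13.9) in oocytes and 5.31 to 607 (median 117) in granulosa cells, with overlap.

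Both antisense RNAs overlap a gene on the other strand, and the strand used in counting was not given in the sources used here, so reads of the partners cannot be told apart by strand. The partners themselves were higher in oocytes in most protocols. So were many genes: 68.0%, 47.6%, 49.4% and 44.4% of those compared were higher by at least 1, in the order of protocols below. A link between the antisense RNAs and their partners was not tested. Kcnq1, the potassium channel gene in which Kcnq1ot1 lies, was higher in oocytes by 2.52, 2.18, 3.05 and 1.41 in log2 (RPM+1) with SMART-Seq v4, DRaqL-SMART-Seq v4, formalin and DRaqL-SC3-seq. Igf2r, the receptor that clears IGF2, was higher in oocytes by 3.38, 2.08 and 2.49 in the first 3 protocols and differed by -1.31 with DRaqL-SC3-seq.

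Among the maternally expressed RNAs of the Meg3 cluster, Meg3 had 0 to 28.8 RPM (median 5.52) in SMART-Seq v4 oocytes and 0 to 1849 (median 180) in granulosa cells, a difference of -4.55 in log2 (RPM+1). The Meg3 differences were -3.25 with DRaqL-SMART-Seq v4, -2.89 in formalin tissue and -4.73 with DRaqL-SC3-seq, where oocytes ran from 0.757 to 20.5 RPM and pools from 1.66 to 602. Rian, a snoRNA host of the cluster, differed by -0.82, -1.05, -2.79 and -1.26. Mirg, which hosts microRNAs, was compared with DRaqL-SC3-seq only (-1.03). Gas5, the snoRNA host, differed by -2.25, -2.29, -1.47 and -2.35 in log2 (RPM+1) in the same order of protocols. Its RPM with DRaqL-SMART-Seq v4 was 2.53 to 88.4 (median 47.5) in oocytes and 45.6 to 391 (median 192) in granulosa cells, so the highest oocytes lay within the lower part of the granulosa range.

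These levels are shares of a library, and oocyte libraries held more reads than granulosa libraries relative to the added ERCC spike-in RNA. Scaled to 1000000 ERCC reads, on the log2 (value+1) scale, the median gene was higher in oocytes by 5.89, 4.44, 3.68 and 3.30 in the 4 protocols. With DRaqL-SC3-seq each granulosa library was a pool of cells and each oocyte library a section of an oocyte. Cell number and level per cell therefore cannot be told apart on the ERCC scale in that protocol. On the ERCC scale Malat1 differed by +1.52, +0.49, +1.46 and -3.36, so its direction changed in the 3 single-cell protocols. Kcnq1ot1 kept a negative difference in the 3 single-cell protocols (-1.37, -4.36 and -1.04), as did Meg3 (-1.22, -1.55 and -0.43). With DRaqL-SC3-seq Kcnq1ot1 differed by -4.18 and Meg3 by -4.28 per library. Gas5 differed by +2.14, +1.15, +1.54 and -0.34, and Airn by +3.60, +0.91, -0.12 and -0.36. Neat1 differed by -0.55, -0.98, +1.79 and -4.26, and Rian by +1.41, +0.41, -1.29 and -1.18. By this measure 2 of 7, 2 of 7, 2 of 7 and 6 of 8 members were lower by at least 1, where 0.211%, 1.98%, 1.37% and 8.67% of compared genes were. Members higher by at least 1 numbered 4, 1, 3 and 0, beside 98.5%, 91.7%, 92.3% and 75.4% of compared genes. In each of these series every value is per library. Cells of all 4 protocols were cut from sections, and the part of each cell held in its section was not measured. The part captured and the level per cell therefore cannot be told apart on the ERCC scale in any protocol. With DRaqL-SC3-seq the number of cells differed as well.

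Genes near the members in the genome, or of like kind, were compared in the same way on the RPM scale. For all compared genes the shares higher by at least 1 were 68.0%, 47.6%, 49.4% and 44.4%. Those lower were 4.59%, 11.8%, 8.15% and 21.8%, and the medians +1.63, +0.92, +0.98 and +0.73. The order is SMART-Seq v4, DRaqL-SMART-Seq v4, formalin and DRaqL-SC3-seq. Of the imprinted protein-coding neighbors of the members, 10 of 14 were higher by at least 1 in SMART-Seq v4 oocytes and 1 was lower, with a median difference of +1.42 in log2 (RPM+1). The counts were 5 higher and 2 lower of 10 with DRaqL-SMART-Seq v4, 6 and 1 of 10 in formalin tissue and 7 and 2 of 12 with DRaqL-SC3-seq. Other snoRNA host genes, the class of Gas5, gave 1 higher and 1 lower of 13, 0 and 6 of 13, 0 and 3 of 13, and 0 and 12 of 13. Their medians were +0.11, -0.82, -0.42 and -1.86. Paraspeckle protein genes, which include Sfpq and Nono, gave 2 and 2, 1 and 2, 0 and 3, and 1 and 2 of 6. Other long noncoding RNAs, such as Xist and Pvt1, gave 2 and 1 of 4, 0 and 6 of 7, 0 and 6 of 8, and 2 and 5 of 8.

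The serial sections show how far 2 slices of the same oocyte differed. For Malat1, 7 of the 8 oocytes gave reads in both sections, and the other, oocyte 7, had 0 reads in 1 section and 101 in the other. Oocytes 8 and 9 held 2 to 4 Malat1 reads per section, while oocyte 1 held 324 and 111. The absolute difference between sections in log2 (RPM+1) had a median of 1.02 for Malat1, 1.84 for Meg3, 0.549 for Kcnq1ot1, 0.532 for Gas5 and 0.324 for Airn. Meg3 differed most in oocyte 9, with 212 reads in 1 section and 0 in the other. The SD between oocytes, after averaging their sections, was 1.67 for Malat1, 0.91 for Meg3, 0.54 for Kcnq1ot1, 0.36 for Airn and 0.17 for Gas5.

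The next question was how the stage of the follicle relates to the members in oocytes. Malat1 was lower in oocytes of secondary to antral follicles than in those of primary follicles in all 3 protocols. With DRaqL-SMART-Seq v4 it was 56.8 to 1471 RPM (median 486) in 9 later oocytes and 2033 to 7316 (median 3632) in 6 primary ones, with no overlap and a difference of -3.45 in log2 (RPM+1). With SMART-Seq v4 it was 7.23 to 647 RPM (median 59.6) in 11 later and 90.2 to 701 (median 308) in 7 primary oocytes, a difference of -2.26. In formalin tissue it was 127 to 2027 RPM (median 524) in 7 later and 1684 to 4655 (median 3236) in 5 primary oocytes, a difference of -2.79. The latter 2 pairs of ranges overlapped, and the share of all compared genes without overlap was not computed. Scaled to ERCC reads the Malat1 differences were -0.50, -0.59 and -0.96 in the same order, while the median gene was higher in later oocytes by 3.28, 2.24 and 1.76. Oocytes of both stages were cut from sections. The part of an oocyte captured and its level per cell therefore cannot be told apart on the ERCC scale.

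**Figure D3:**
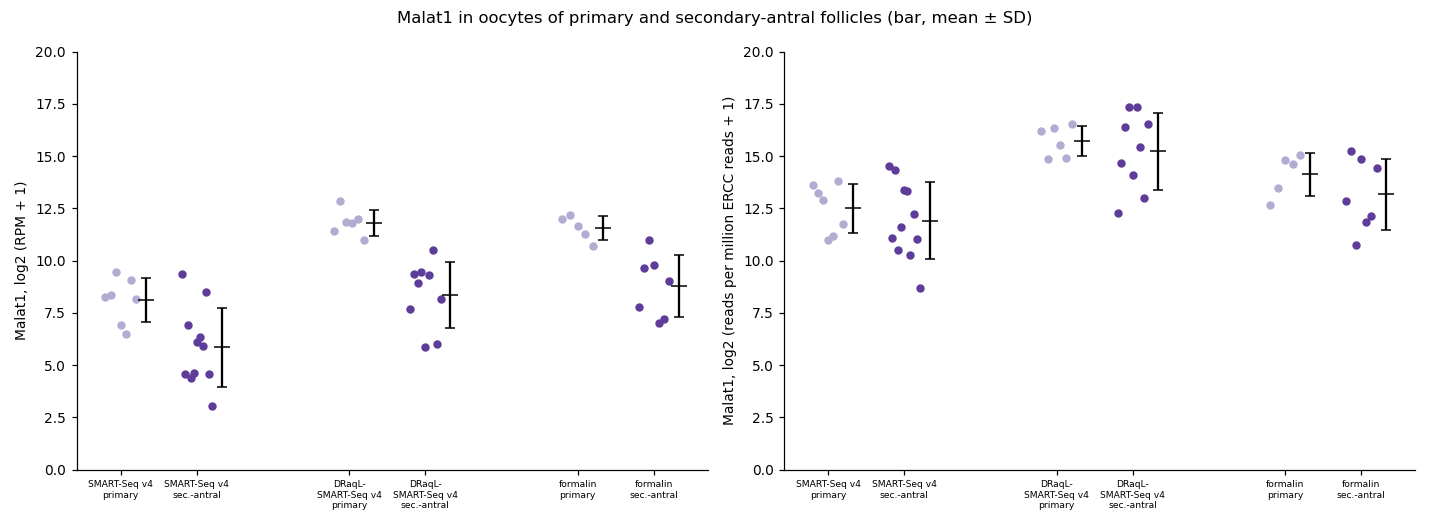
Malat1 in each oocyte by follicle stage in 3 protocols, as log2 (RPM+1) on the left and log2 of reads scaled to ERCC spike-in reads on the right; each point is 1 oocyte and bars show the mean and SD. With DRaqL-SMART-Seq v4 the stages do not overlap on the left, where the mean difference was -3.45, and overlap on the right, where it was -0.50.

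Gas5 was lower in later oocytes on the RPM scale and higher when scaled to ERCC reads. It differed by -1.30 with SMART-Seq v4, -1.28 with DRaqL-SMART-Seq v4 and -0.46 in formalin tissue on the log2 (RPM+1) scale, and by +0.38, +1.61 and +1.36 scaled to ERCC reads. Airn, Kcnq1ot1 and Meg3 varied in direction between protocols. Airn differed by +1.36, +0.48 and -1.64, and Kcnq1ot1 by -1.23, +1.42 and +0.02 on the RPM scale. Meg3 differed by +0.31, +1.15 and -0.41. Members lower by at least 1 were 4 of 7, 2 of 5 and 3 of 7, where 14.3%, 21% and 24.1% of compared genes were, and those higher were 1, 2 and 0, beside 32.9%, 34.7% and 25.7%. In the SMART-Seq v4 and DRaqL-SMART-Seq v4 tables the stages were amplified in different library pools, apart from 1 SMART-Seq v4 oocyte, so stage and pool cannot be told apart there. The formalin oocytes shared 1 pool. Oocyte markers moved with stage: their median sum was 6457, 2966 and 3616 RPM in primary oocytes and 22729, 21231 and 22640 RPM in later ones. The part of that shift in the member differences was not tested.

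The third question was how the lysis and amplification bear on these RNAs. Malat1 and Kcnq1ot1 were higher in granulosa cells with DRaqL-SMART-Seq v4 than with SMART-Seq v4. Lysis, enzymes and library pools all differed within each pair of protocols, so their parts cannot be told apart. Malat1 was at 1016 to 25467 RPM (median 6837) in 39 DRaqL-SMART-Seq v4 cells and 45.5 to 12885 (median 824) in 34 SMART-Seq v4 cells. The means of log2 (RPM+1) were 12.75 (SD 0.91) and 9.61 (SD 1.49), a difference of +3.14 with overlapping ranges. Kcnq1ot1 was detected in 38 of 39 and 22 of 34 cells, and its level differed by +3.79 in log2 (RPM+1). Airn differed by +1.80, Meg3 by -1.74, Gas5 by -0.26, Neat1 by -0.40 and Rian by -0.60. Thus 3 of 7 members were higher by at least 1 and 1 was lower, beside 36.6% and 2.06% of compared genes, whose median difference was +0.73.

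**Figure D4:**
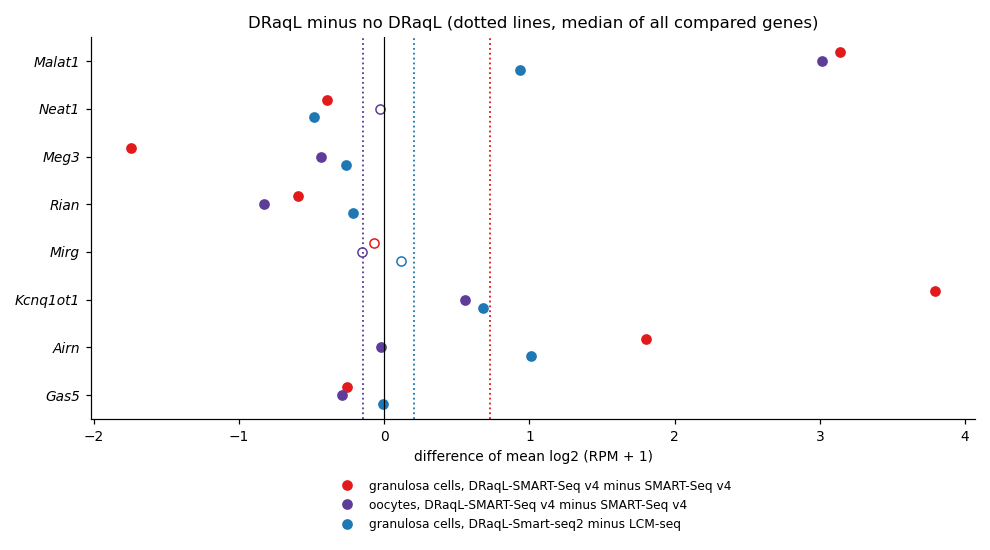
Difference in mean log2 (RPM+1) between protocols for each member: DRaqL-SMART-Seq v4 minus SMART-Seq v4 in granulosa cells and in oocytes, and DRaqL-Smart-seq2 minus LCM-seq in granulosa cells; dotted lines are the medians of all compared genes and open circles members not compared. Malat1 lies 3.14 and 3.02 above 0 in the first 2 comparisons.

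In oocytes the same pair of protocols gave a Malat1 difference of +3.02, with 56.8 to 7316 RPM in 15 DRaqL oocytes and 7.23 to 701 RPM in 18 others. It was the only one of 6 members past a difference of 1, beside 7.16% of compared genes higher and 10.9% lower. Kcnq1ot1 differed by +0.56, Airn by -0.02, Gas5 by -0.29, Meg3 by -0.44 and Rian by -0.83 in log2 (RPM+1). Between DRaqL-Smart-seq2 and LCM-seq granulosa cells, Airn differed by +1.01, Malat1 by +0.93, Kcnq1ot1 by +0.68, Meg3 by -0.26 and Gas5 by -0.01. Airn alone of 7 members passed a difference of 1, beside 11.6% of compared genes higher and 2.65% lower. Scaled to ERCC reads Malat1 was higher with the DRaqL protocols by 4.33 and 3.29 in SMART-Seq v4 granulosa cells and oocytes and by 1.87 in Smart-seq2 cells, where the median gene differed by +1.61, 0.00 and +1.04. Kcnq1ot1 differed by +5.18, +2.19 and +1.66 on that scale. The study lists no spike-in amount for SMART-Seq v4 without DRaqL, so equal spike-in input within that pair of protocols is not documented. The cells compared between methods are different cells, by the study's account from sections of a shared ovary.

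Formalin fixation was compared with alcohol in granulosa cells with DRaqL-Smart-seq2. The formalin protocol also adds a protease, and its cells were in other library pools. Median reads were 278044 and 177415 in neighboring and non-neighboring formalin cells, against 1175755 and 1409578 in alcohol cells. Fixation, protease, library pool and depth therefore cannot be told apart. Malat1 had 785 to 7759 RPM (median 3346) in 24 formalin cells and 1326 to 8358 (median 2958) in 34 alcohol cells, a difference of -0.04 in log2 (RPM+1). Kcnq1ot1 was higher by 1.16, Airn by 0.96 and Rian by 0.93, and Gas5 differed by -0.49. Kcnq1ot1 was the only member of 7 past a difference of 1, beside 10.2% of compared genes higher and 25.2% lower. Every range overlapped.

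The last question was whether the members differ with the position of a granulosa cell relative to the oocyte. Neat1 was lower in neighboring than in non-neighboring cells in each of 5 protocols and in all 18 library pools that held both positions. The differences in mean log2 (RPM+1) were -1.88 with SMART-Seq v4, -1.59 with DRaqL-SMART-Seq v4, -0.87 with LCM-seq, -0.67 with DRaqL-Smart-seq2 and -1.41 in formalin tissue. Within pools they ran from -3.57 to -0.30, and some pools held only 2 neighboring cells. Differences within pools were computed for the members only, so the share of all genes lower in every pool is not known. The ranges overlapped in each protocol, since many cells of either position held no Neat1 read.

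Neat1 was detected in 6 of 17 neighboring and 8 of 17 non-neighboring cells with SMART-Seq v4, and in 4 of 20 and 13 of 19 with DRaqL-SMART-Seq v4. The counts were 8 of 17 and 12 of 20 with LCM-seq, 7 of 15 and 13 of 19 with DRaqL-Smart-seq2, and 6 of 12 and 8 of 12 in formalin tissue. In the DRaqL-SMART-Seq v4 cells the Neat1 level was 0 to 21.6 RPM (median 0) next to the oocyte and 0 to 87.1 (median 1.17) away from it. Reads summed over the cells gave 1.77 and 11.5 RPM.

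**Figure D5:**
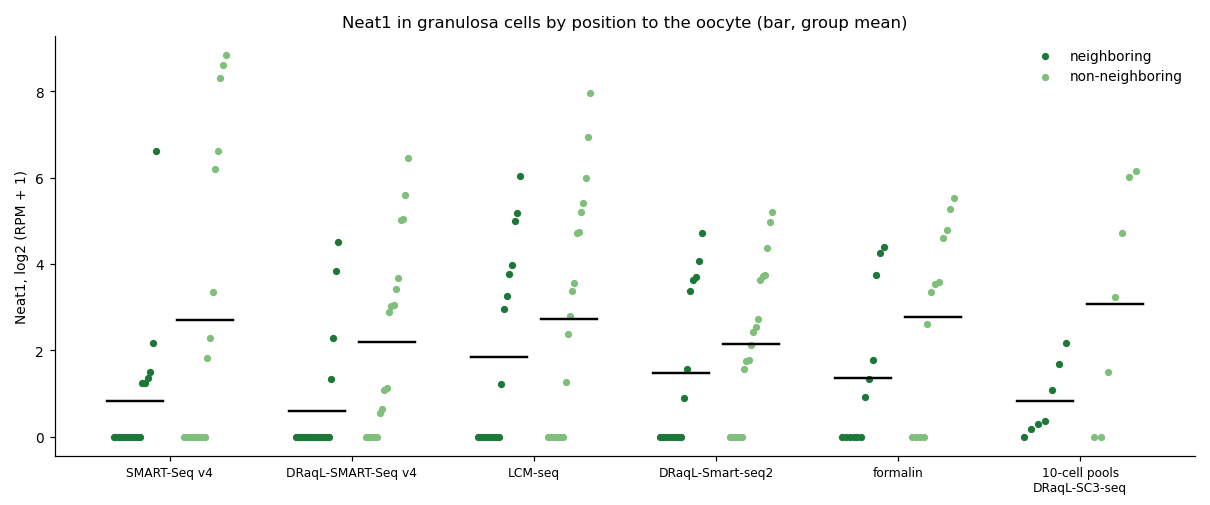
Neat1 by position: log2 (RPM+1) in each library, with neighboring and non-neighboring granulosa cells or 10-cell pools side by side for each protocol and bars for group means. The mean is lower in neighboring cells in each protocol, and many libraries lie at 0.

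Markers of other cell types moved with position as well. The theca and stroma markers (Col1a1, Dcn, Cyp17a1 and others) summed to median levels of 1.37 and 3.25 RPM in neighboring and non-neighboring cells with SMART-Seq v4. They were 3.15 and 272 with DRaqL-SMART-Seq v4, 0 and 0 with LCM-seq, 1.08 and 29.9 with DRaqL-Smart-seq2, and 3.57 and 53.4 in formalin tissue. Of 8 such markers 7 had a row, and all 7 were detected in non-neighboring cells of each protocol except LCM-seq, where Cyp17a1 was at 0. The highest sum in a neighboring cell was 110 RPM, against 5521 RPM in a non-neighboring cell. Oocyte markers were higher next to the oocyte, with medians of 800 and 26.4, 291 and 3.32, 1054 and 20.0, 484 and 13.3, and 728 and 63.8 RPM. Without the cells whose theca and stroma markers reached 10 RPM, a choice made after seeing the data, the Neat1 difference was -1.84 over 12 and 10 cells with SMART-Seq v4, -0.99 over 15 and 6 with DRaqL-SMART-Seq v4 and -0.66 over 16 and 17 with LCM-seq. It was -0.93 over 15 and 8 cells with DRaqL-Smart-seq2 and -1.52 over 10 and 5 in formalin tissue. Without cells whose oocyte markers reached 10% of a median oocyte it was -1.54, -1.52, -0.51, -0.61 and -1.25. The median oocyte was that of the same protocol, except that formalin oocytes served for LCM-seq and DRaqL-Smart-seq2.

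Kcnq1ot1 was higher next to the oocyte with DRaqL-Smart-seq2, at 102 to 900 RPM (median 396) in 15 neighboring and 1.96 to 760 (median 180) in 19 non-neighboring cells. The difference was +2.09 in log2 (RPM+1), between 1.61 and 2.70 in its 4 pools, and +1.04 in formalin tissue. With SMART-Seq v4, DRaqL-SMART-Seq v4 and LCM-seq it was -0.19, -0.14 and +0.09. Meg3 was lower next to the oocyte by 2.19 with SMART-Seq v4, 0.98 with DRaqL-SMART-Seq v4 and 1.30 in formalin tissue, and differed by -0.47 with LCM-seq and +0.15 with DRaqL-Smart-seq2. Without the cells with theca and stroma markers the Meg3 values became -2.55, -1.51, -0.24, -0.51 and +0.22 in the order SMART-Seq v4, DRaqL-SMART-Seq v4, formalin, LCM-seq and DRaqL-Smart-seq2. Those of Kcnq1ot1 became -1.37, -0.07, +0.85, +0.36 and +1.94 in that order.

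Malat1 differed with position by -0.91, -0.50, -0.44, -0.20 and -0.66 in the order SMART-Seq v4, DRaqL-SMART-Seq v4, LCM-seq, DRaqL-Smart-seq2 and formalin. Airn differed by -0.80, -1.05, -0.92, +1.12 and +0.96. Members lower by at least 1 next to the oocyte numbered 2 of 7, 2 of 7, 0 of 8, 0 of 8 and 2 of 7, beside 16.3%, 12.7%, 5.54%, 5.66% and 11.5% of compared genes. Members higher numbered 0, 0, 0, 2 and 1, beside 9.66%, 8.87%, 16.2%, 11.2% and 19.2%.

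The 10-cell pools allowed a test of position over 7 and 7 libraries, with edgeR's quasi-likelihood test and Benjamini-Hochberg adjustment over all 12490 rows tested. In pooled cells, fewer cells of a type and less RNA per cell cannot be told apart. None of the 6 members tested was called at an adjusted p of 0.05, beside 0.2% of rows. At an unadjusted p of 0.05, 1 member and 4.82% of rows passed, and DESeq2 called 1 member and 1.2% of rows. With ERCC library sizes edgeR called 0 members and 0.336% of rows. The member called by DESeq2 was Neat1, at 0 to 3.52 RPM in neighboring pools and at 69.8, 63.2, 1.81, 0, 25.1, 0 and 8.42 RPM in the non-neighboring pools. The groups overlapped, since 2 non-neighboring pools had no Neat1 read. Its log2 fold change was -4.71 (SE 1.64, edgeR p = 0.0110, adjusted p = 0.723), and its adjusted p with DESeq2 was 0.0396.

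The non-neighboring pools highest in Neat1 also held the most theca and stroma marker reads: 2511 and 1492 RPM in replicates 1 and 2, against 289, 0.787, 127, 641 and 2.26 RPM in replicates 3 to 7. Neighboring replicate 1 held 939 RPM. Without these 3 pools, a choice made after seeing the data, too few Neat1 reads were left for it to enter the edgeR test, and 0 members were called. The part of the theca and stroma reads in the Neat1 values was not tested. Malat1 in the pools ran from 40.3 to 387 RPM next to the oocyte and from 48.2 to 786 away from it (log2 fold change -0.67, SE 0.61). Gas5 changed by -0.84 (SE 0.70), Airn by -0.54 (SE 0.76), Meg3 by +0.11 (SE 0.84) and Kcnq1ot1 by +0.01 (SE 0.59) on the log2 scale, and edgeR's adjusted p was 0.999 or above for each. Rian was at or under 0.678 RPM in 6 neighboring pools and at 18.2 RPM in the other, and it was not tested.

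Bulk granulosa layers were compared with the 14 pools in the same way. None of 8 members was called by edgeR, beside 0.98% of 15510 rows (0.845% higher and 0.135% lower), and 9.1% of rows passed an unadjusted p of 0.05. DESeq2 called 3.0% of rows. With ERCC library sizes in place of read totals, edgeR called 8 of 8 members higher in bulk, beside 99.9% of rows. Median ERCC reads were 4591 in bulk and 330856 in pools. Bulk libraries held whole granulosa layers and pools 10 cells, so on the ERCC scale cell number and level per cell cannot be told apart. By the study's account the pools came from early antral follicles, and part of the bulk samples from follicles whose stage was not identified. Follicle stage and kind of sample therefore cannot be told apart on either scale. With read totals, Airn had the lowest p, at 29.2 to 83.7 RPM in bulk and 3.96 to 460 RPM in pools, with a log2 fold change of -1.24 (SE 0.61, edgeR p = 0.0549, adjusted p = 0.569). Neat1 changed by +1.19 (SE 1.04), Gas5 by +0.49 (SE 0.52), Rian by -0.32 (SE 1.43), Meg3 by -0.23 (SE 0.65) and Mirg by -0.21 (SE 1.40) on the log2 scale. Malat1 (-0.03, SE 0.46) and Kcnq1ot1 (+0.04, SE 0.49) had estimates near 0. The bulk libraries varied little in Malat1, at 142 to 323 RPM.

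Across the 20 group means of log2 (RPM+1), the row most like Malat1 among 19024 was Rbm39, a splicing factor gene (Pearson r 0.916). For Neat1 it was Irs1 (0.869), an insulin receptor substrate gene, and for Meg3 Akr1cl (0.932). For Rian it was Zfpm2 (0.892), for Kcnq1ot1 Ano4 (0.979), for Airn 1810032O08Rik (0.902) and for Gas5 Gm22019 (0.948). Between members the closest pairs were Meg3 with Gas5 (0.839), Kcnq1ot1 with Airn (0.810) and Neat1 with Meg3 (0.765). Malat1 and Kcnq1ot1 gave 0.608. These 20 points share protocol and cell type, and the values are descriptions.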

How the data were processed

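The authors trimmed reads with fastp 0.20.0 and cutadapt 1.16, mapped them to GRCm38 with HISAT2 2.1.0 and counted them per gene with HTSeq 0.10.0, including reads up to 10 kb downstream of 3′ ends; featureCounts 2.0.1 is also listed in the submitters' processing notes. The deposited values used are raw read counts per gene, without molecular identifiers, so intervals cover counting error only. The Ensembl release and strand setting are not given in the sources used here. Tables without noncoding rows, and exon and junction counts, were not used. Members and gene lists were chosen with earlier results of these data known.

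RPM was computed over all rows, without ERCC spike-ins, then log2 (RPM+1) (Python 3.11.15, numpy 2.4.6, pandas 2.3.3, scipy 1.17.1). Genes with a mean of at least 1 in either group were compared, and a difference of at least 1 was counted. Sections of an oocyte were averaged. Pools and bulk libraries, which hold 5401905 to 12703277 reads, were tested with edgeR 4.0.16 (R 4.3.3, limma 3.58.1, TMM, quasi-likelihood), 0.05 after Benjamini-Hochberg adjustment, with DESeq2 1.42.0 as an alternative. Nothing says that these libraries came from separate mice, so p-values measure the spread between these samples. Scripts were tested on simulated data. Named genes were all members, overlapping partners and, per member, the 3 rows with the most similar group means, of which the first is given. In sequences, both listed signals were searched in the sense strand only. Alternatives were pseudocounts of 0.1 and 10, protein-coding RPM, ratios of mean RPM, thinning to 100000 reads, ERCC scaling, and leaving out mixed cells, a follicle stage, shallow libraries or single replicates.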

Additional observations from a re-analysis of the deposited data

Results flagged for a closer look

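In groups of 4 to 10 libraries the highest and lowest level of each member was set against the nearest other library, and 20 of 152 ends tested stood further apart than Dixon's 95% limit. Chance flags about 1 in 20 groups, and a single read in a group at 0 is enough. Values are levels as log2 (RPM+1), each followed by the nearest other library.

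Bulk library 2 was lowest for 3 members: Neat1 at 0.502 (nearest 2.84), Rian at 0 (2.32) and Kcnq1ot1 at 3.08 (5.45). Bulk library 3 was highest for H19 at 1.15 (0.213). Among the 10-cell pools, neighboring pool 6 was highest for Rian at 4.26 (0.746), neighboring pool 7 for H19 at 0.153 (0) and non-neighboring pool 5 for H19 at 4.12 (0). Neither Rian nor H19 was tested in the pools.

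Among formalin oocytes, Kcnq1ot1 reached 8.81 in secondary-antral oocyte 3 (nearest 4.84), and H19 reached 3.55 in primary oocyte 4 (0) and 0.654 in secondary-antral oocyte 4 (0). Among serially sectioned oocytes, oocyte 6 was highest for Neat1 at 0.923 (0), oocyte 2 for Rian at 0.714 (0.235) and oocyte 4 for Mirg at 0.650 (0.128).

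With DRaqL-SMART-Seq v4, primary oocyte 1 was highest for Rian at 0.289 (0), primary oocyte 4 for Kcnq1ot1 at 2.49 (0.917) and primary oocyte 5 for H19 at 5.73 (0). Secondary-antral oocyte 3 was highest for Neat1 at 1.42 (0), oocyte 1 for Airn at 5.92 (3.46), and oocyte 2 was lowest for Gas5 at 1.82 (4.20). With SMART-Seq v4, primary oocyte 6 was highest for Mirg at 2.02 (0).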

How the results depend on the processing

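Scaling to ERCC reads reversed the most results. Scaled to ERCC reads, oocytes minus granulosa cells became 1.52 for Malat1 and 2.14 for Gas5 with SMART-Seq v4, 0.49 for Malat1, 0.41 for Rian, 0.91 for Airn and 1.15 for Gas5 with DRaqL-SMART-Seq v4, and 1.46 for Malat1 and 1.54 for Gas5 in formalin tissue. Differences under 1 in size also turned, to 3.60 for Airn and 1.41 for Rian with SMART-Seq v4 and to 1.79 for Neat1 in formalin tissue. Later minus primary oocytes became 0.38 for Gas5 with SMART-Seq v4, 1.61 for Gas5 with DRaqL-SMART-Seq v4 and 0.064 for Airn in formalin tissue. With ERCC library sizes all 8 members were called higher in bulk than in pools, as were 99.9% of rows, including Airn by 5.25, Malat1 by 6.42, Meg3 by 5.55, Rian by 6.17 and Mirg by 5.72. Thinned to 1 depth, the formalin stage difference of Neat1 became 0.046. With primary oocytes only, a choice made after seeing the data, Malat1 became 0.048 in formalin oocytes minus granulosa cells. The cause of these reversals was not tested.

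Counts of members past a difference of 1 also moved. The share of all genes past 1 was computed only for ERCC-scaled oocytes minus granulosa cells, given above. Under the other settings here it was not computed, so these counts have no background beside them. With a pseudocount of 0.1, 3 passed for fixation, 4 for method in oocytes, 4 for position with DRaqL-SMART-Seq v4, 4 with DRaqL-Smart-seq2 and 2 with LCM-seq. With a pseudocount of 10, 0 passed for fixation, 0 for DRaqL-Smart-seq2 minus LCM-seq, 5 for oocytes minus granulosa cells with DRaqL-SC3-seq, 2, 1 and 1 for stage with SMART-Seq v4, DRaqL-SMART-Seq v4 and formalin, and 1, 0 and 1 for position with DRaqL-Smart-seq2, DRaqL-SMART-Seq v4 and formalin. RPM over protein-coding rows gave 0 for fixation and 1 for LCM-seq position. Ratios of mean RPM gave 0 for fixation, 5 for formalin stage, 3 for method in oocytes, 1 for DRaqL-SMART-Seq v4 position and 2 for LCM-seq position. Thinning gave 2 for fixation and 1 for LCM-seq position. Scaled to ERCC reads, 3 passed for DRaqL-Smart-seq2 minus LCM-seq, 4 for method in oocytes, 3 for oocytes minus granulosa cells with DRaqL-SMART-Seq v4, 1 for LCM-seq position and 4 for position with each of the other alcohol protocols (DRaqL-Smart-seq2, SMART-Seq v4 and DRaqL-SMART-Seq v4). Without mixed cells, 4 passed for SMART-Seq v4 position and 3 for LCM-seq position. Without cells with theca and stroma reads, a choice made after seeing the data, 4 and 1 passed for SMART-Seq v4 and DRaqL-SMART-Seq v4 position. Within neighboring cells, 3 passed for DRaqL-Smart-seq2 minus LCM-seq, and within non-neighboring cells 0, with 2 for fixation. Without libraries under 100000 reads, 2 passed for fixation.

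DESeq2 called 1 member in the pools, Neat1. Leaving out each pool or bulk library in turn called 0 members, with Neat1 between -5.33 and -4.14 and its adjusted p between 0.416 and 1.00 in the pools. With the replicate block, 0 members were called and Neat1 changed by -3.13 (adjusted p = 0.998). Deviations from the group mean correlated at 0.013 to 0.199 between same-numbered pools, above 0.1 in 2 of 7 pairs. Of the neighboring pools, 3 correlated best with the non-neighboring pool of their own number. Whether the numbers pair the samples cannot be told from these values. Low read numbers limit Neat1, Rian, Mirg and H19.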
